A study of Mus musculus with 6 samples.

Results

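The 7 miRNAs described here are miR-9-5p (MIMAT0000142), miR-9-3p (MIMAT0000143), miR-124-3p (MIMAT0000134), miR-7a-5p (MIMAT0000677), miR-7b-5p (MIMAT0000678), miR-128-3p (MIMAT0000140) and miR-132-3p (MIMAT0000144), out of 788 miRNAs listed in at least 1 library. They were chosen by name as miRNAs associated with nervous tissue, with their read counts in these libraries already known, so their levels are a description. The kit contrasts did not define the set, and the p-values below describe these libraries and are not independent evidence. Serum came from healthy male and female 129/SVj mice aged 2 to 9 months, taken by cardiac puncture under tribromoethanol, and RNA was isolated from the serum of individual mice. All animals were untreated, and the groups differ by library preparation kit: NEBNext (the NEBNext Multiplex kit for small RNA from New England Biolabs), TruSeq (the v2 TruSeq small RNA kit from Illumina) and TailorMix (the v2 TailorMix miRNA kit from Seqmatic), with 2 libraries each. The sources used here do not name the mouse, sex or age behind a library, so that differences between kits and between mice cannot be told apart.

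MiRNAs are short RNAs cut from a hairpin precursor, of which either arm can be retained, and they repress mRNAs that pair with bases 2 to 8 of the miRNA, called the seed. MiR-9 and miR-124 are classical miRNAs of the nervous system, where miR-9 acts in neural progenitors and miR-124 is abundant in differentiated neurons. MiR-7 is known from neurons and from endocrine cells of the pancreas and pituitary. MiR-128 is enriched in brain but is also made in other tissues, and miR-132 is induced by neuronal activity through the transcription factor CREB and is also expressed outside the brain. Serum is cell-free, and the tissue that released a serum miRNA was not tested.

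The mature sequences of 6 of the 7 miRNAs were matched by name in RefSeq (GRCm38.p6). They are shown because the members fall into seed groups and because the 2 forms of miR-7, whose counts differ widely below, are nearly identical. Capitals mark the seed, and sequences run from 5′ to 3′.
miR-9-5p: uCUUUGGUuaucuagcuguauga
miR-9-3p: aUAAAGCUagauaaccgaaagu
miR-7a-5p: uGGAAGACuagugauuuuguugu
miR-7b-5p: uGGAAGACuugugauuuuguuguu
miR-128-3p: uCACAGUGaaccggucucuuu
miR-132-3p: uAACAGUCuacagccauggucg
MiR-7a-5p and miR-7b-5p share the seed GGAAGAC, and 22 of the 23 positions compared are the same. Counted from the 5′ end, the substitution from miR-7a-5p to miR-7b-5p is A10U, and miR-7b-5p has 1 further base at its 3′ end. The seed of miR-132-3p, AACAGUC, occurs in 2 mature miRNAs of the table, the other being miR-212-3p. The seeds of miR-9-5p, miR-9-3p and miR-128-3p each occur in 1 mature miRNA only. The 6 sequences are 21 to 24 bases long with a median GC content of 34.8%, against 52.2% over all 1679 mature miRNAs of the table. They begin with U in 5 of 6 cases, whereas 40.9% of all mature miRNAs in the table do, and 4 of 6 end in U, against 28.6% of all.

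Several members have more than 1 gene on GRCm38, and their reads cannot be assigned to a single gene. Both arms of miR-9 come from Mir9-1, Mir9-2 and Mir9-3, whose 5p arms lie at chr3:88215613-88215635, chr13:83738821-83738843 and chr7:79505279-79505301 on the plus strand. In GENCODE M21, Mir9-1 lies in an intron of the lincRNA Gm3764, Mir9-2 overlaps an exon of the lincRNA C130071C03Rik, and Mir9-3 lies in an intron of the lincRNA Mir9-3hg. MiR-7a-5p comes from Mir7-1 at chr13:58392841-58392863 on the minus strand, in an intron of Hnrnpk, which encodes a nuclear RNA-binding protein, and from Mir7-2 at chr7:78888295-78888317 on the plus strand, outside other genes. MiR-7b-5p has the single gene Mir7b at chr17:56243017-56243040 on the plus strand, also outside other genes. MiR-128-3p comes from an intron of R3hdm1 at chr1:128202404-128202424 on the plus strand and from an intron of Arpp21 at chr9:112118644-112118664 on the minus strand. MiR-132-3p has the single gene Mir132 at chr11:75173723-75173744 on the plus strand, in an intron of the noncoding transcript 1700016P03Rik.

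The deposited values are raw read counts per mature miRNA. The libraries held 165139 to 351758 miRNA reads, which were 0.856% to 3.76% of all annotated small RNA reads, while tRNA took 95.5% to 98.9% of them. A share below is the percentage of a library's miRNA reads, and a miRNA that is not listed for a library was taken as 0, which allows a share of up to 0.000853% to 0.00182% (3 counts) in single libraries. Intervals and these limits cover counting error only. A read spans a whole mature miRNA, so counts were not divided by length. MiR-16-5p (MIMAT0000527), which is abundant in red cells, is given as a reference from outside the nervous system: it took 5.14% and 4.89% of miRNA reads with TailorMix, 3.22% and 2.81% with TruSeq, and 0.402% and 0.374% with NEBNext, and its part in the results below was not tested.

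Together the 7 miRNAs made up 4.12% and 4.15% of miRNA reads with TailorMix, 1.88% and 1.75% with NEBNext, and 0.160% and 0.134% with TruSeq. The means were 4.13% ± 0.0251, 1.82% ± 0.0913 and 0.147% ± 0.0187 (SD, n = 2 each), and the libraries of different kits did not overlap. These shares stand for 7965 and 8176 reads with TailorMix, 4231 and 2894 with NEBNext, and 563 and 377 with TruSeq. The make-up of the sum also differed. MiR-128-3p carried 94.1% ± 0.157 of it with NEBNext and 95.9% ± 0.514 with TruSeq, whereas miR-9-5p carried 68.9% ± 0.100 with TailorMix and miR-128-3p 18.9% ± 0.0792 (SD, n = 2 each). Without miR-9-5p the remaining 6 miRNAs took 1.29% ± 0.0119 of miRNA reads with TailorMix, 1.8% ± 0.0894 with NEBNext and 0.146% ± 0.0182 with TruSeq (SD, n = 2 each), so that the order of NEBNext and TailorMix turned around.

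**Figure D1:**
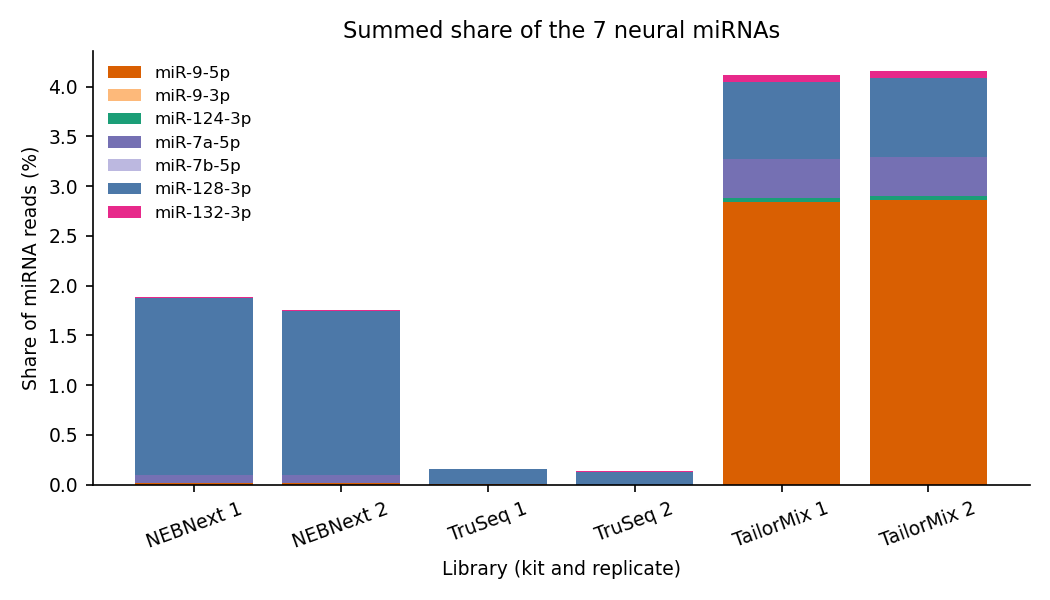
Stacked bars give the share of miRNA reads (%, linear axis from 0) of the 7 neural miRNAs in each of the 6 libraries, with a colour for each miRNA. The TailorMix bars reach 4.12% and 4.15% and consist mostly of miR-9-5p, the NEBNext bars reach 1.88% and 1.75% and consist mostly of miR-128-3p, and the TruSeq bars stay at or under 0.160%.

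With at least 4 counts in both libraries of a kit as the limit of detection, 6 of the 7 were detected with TailorMix, 4 with NEBNext and 2 with TruSeq. Of all 788 miRNAs, 32.0%, 33.2% and 26.9% were detected by the same limit in the same order. TruSeq had 633834 miRNA reads over both libraries, against 390363 for TailorMix and 390003 for NEBNext. The miRNAs detected with TruSeq were miR-128-3p and miR-132-3p. NEBNext added miR-9-5p and miR-7a-5p, and TailorMix added miR-9-3p and miR-124-3p to these. MiR-7b-5p reached 4 counts only in NEBNext replicate 2, with 4, and in TailorMix replicate 2, with 5.

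**Figure D2:**
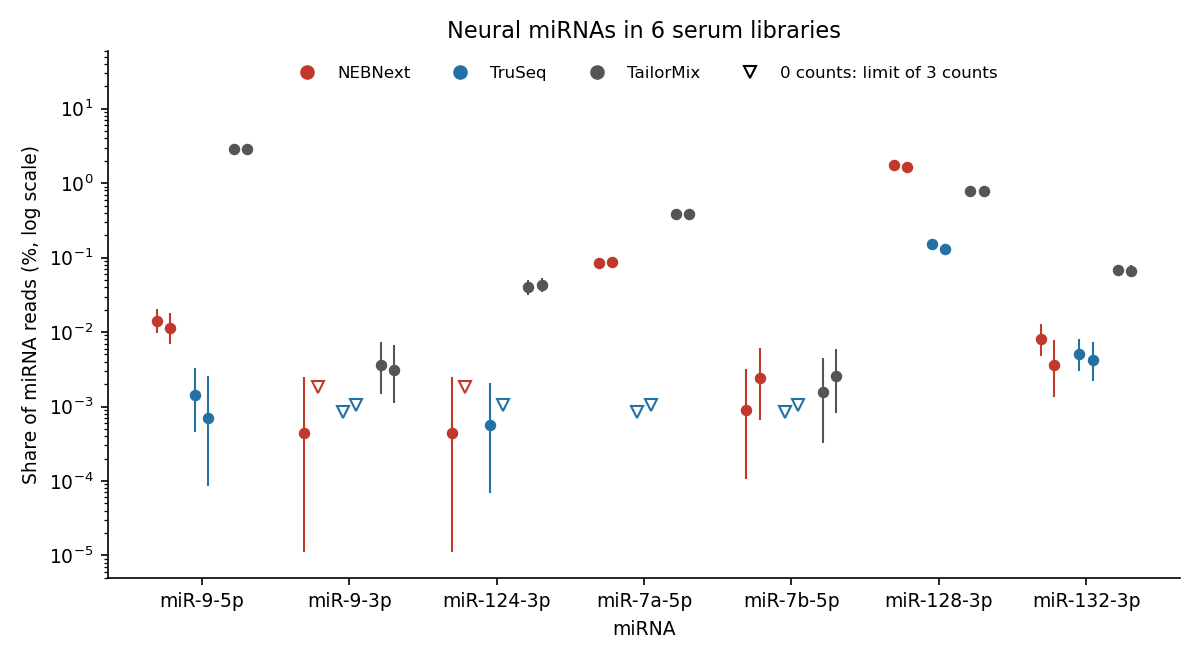
Points give the share of miRNA reads (%, log axis) of each neural miRNA in each library with its 95% Clopper-Pearson interval, coloured by kit, and open triangles mark libraries with 0 counts at the share that 3 counts would give. The TailorMix points of miR-9-5p stand at 2.84% and 2.86% while those of the other kits stay at or under 0.0142%, and miR-7a-5p has only open triangles for TruSeq.

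MiR-9-5p, the dominant arm of the miR-9 hairpin, had 5495 and 5629 reads with TailorMix, 32 and 19 with NEBNext, and 5 and 2 with TruSeq. Its share was 2.84% and 2.86%, 0.0142% and 0.0115%, and 0.00142% and 0.000709% in the same order, so that TailorMix stood far above the other kits in both libraries. The libraries of a kit lay close together with TailorMix and NEBNext, while the TruSeq shares differed more and rest on 5 and 2 reads. The 95% Clopper-Pearson intervals of the 2 libraries overlapped within every kit, which so few reads make likely with TruSeq. With TailorMix it ranked 9th of 415 and 9th of 431 listed miRNAs, with NEBNext 153rd of 540 and 163rd of 492, and with TruSeq 208th of 421 and 258th of 367. From the pooled counts, its share with TailorMix was 218 times that with NEBNext (95% counting interval 166 to 293) and 2580 times that with TruSeq (1252 to 6419). Counting a kit with 3 or fewer reads as 3, 2 of the 360 miRNAs tested had a TailorMix share at least 100 times that of both other kits, and miR-9-5p was 1 of them. That number depends on the cut and on the floor of 3 reads. MiR-124-3p, at 162 and 132 times the pooled shares of NEBNext and TruSeq, missed the cut only through the floor.

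MiR-9-3p, the opposite arm of the same hairpins, had 7 and 6 reads with TailorMix, 1 and 0 with NEBNext, and 0 in both TruSeq libraries. It was thus highest with TailorMix, but at a level near the limit of counting. TailorMix held 856 reads of miR-9-5p per read of miR-9-3p (95% counting interval 500.2 to 1608), and NEBNext held 51 per read (8.75 to 2053), an interval that includes the TailorMix value. Of TruSeq, with 7 reads of the 5p arm and none of the 3p arm, no ratio can be given.

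MiR-124-3p, the neuronal miRNA, had 78 and 84 reads with TailorMix, 1 and 0 with NEBNext, and 2 and 0 with TruSeq. Outside TailorMix it therefore stayed at or under 3 reads in each kit, which gives no fold between NEBNext and TruSeq. Its TailorMix share was 0.0415% ± 0.00166 (SD, n = 2), and it ranked 98th and 97th there. The pooled TailorMix share was 162 times that of NEBNext (95% counting interval 28.6 to 6432) and 132 times that of TruSeq (35.8 to 1095), wide intervals that reflect the 1 and 2 reads of those kits.

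MiR-7a-5p, the more abundant form of miR-7, had 747 and 768 reads with TailorMix, 191 and 145 with NEBNext, and 0 in both TruSeq libraries. TruSeq thus stood apart for this miRNA. Its share was 0.0864% ± 0.00203 with NEBNext and 0.388% ± 0.00279 with TailorMix (SD, n = 2 each), while 0 reads allowed at most 0.000853% and 0.00106% in the TruSeq libraries. Set against 3 reads over both TruSeq libraries, its share was at least 182-fold higher with NEBNext and at least 820-fold higher with TailorMix. From NEBNext to TailorMix the pooled ratio was 4.5 (95% counting interval 4.00 to 5.09). Of all 360 miRNAs tested, 59 had no read in either TruSeq library. Of 96 miRNAs with at least 300 NEBNext reads over both libraries, it was 4, miR-7a-5p among them. The limit of 300 lies just under the 336 NEBNext reads of miR-7a-5p, so the 4 of 96 depend on where it was set.

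MiR-7b-5p, which has the same seed, had 3 and 5 reads with TailorMix, 2 and 4 with NEBNext, and 0 in both TruSeq libraries. TailorMix and NEBNext overlapped, with a pooled share ratio of 1.33 (95% counting interval 0.405 to 4.66), an interval that includes both 1 and the ratio of miR-7a-5p. MiR-7a-5p gave 56 reads per read of miR-7b-5p with NEBNext (25.5 to 154) and 189 with TailorMix (95.9 to 439).

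MiR-128-3p, the member with the most reads outside TailorMix, had 1504 and 1553 reads with TailorMix, 3986 and 2720 with NEBNext, and 538 and 363 with TruSeq. Its share was 0.777% and 0.789%, 1.77% and 1.65%, and 0.153% and 0.129% in the same order. The kits did not overlap, and NEBNext was highest for this miRNA, opposite to miR-9-5p. The NEBNext libraries were the only pair of any member whose 95% Clopper-Pearson intervals did not overlap. The pooled share with NEBNext was 12.1 times that with TruSeq (95% counting interval 11.3 to 13.0) and 2.20 times that with TailorMix (2.10 to 2.29).

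MiR-132-3p, the activity-induced miRNA, had 131 and 131 reads with TailorMix, 18 and 6 with NEBNext, and 18 and 12 with TruSeq. Its mean share was 0.0671% ± 0.000833, 0.00582% ± 0.00309 and 0.00469% ± 0.000610 in the same order (SD, n = 2 each). NEBNext and TruSeq overlapped, and TailorMix lay above both, 10.9 times (95% counting interval 7.17 to 17.3) and 14.2 times (9.70 to 21.4) in the pooled share.

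The order of the members by share changed with the kit. With NEBNext it ran miR-128-3p, miR-7a-5p, miR-9-5p, miR-132-3p and miR-7b-5p, followed by miR-124-3p and miR-9-3p with 1 read each. With TruSeq it ran miR-128-3p, miR-132-3p, miR-9-5p and miR-124-3p, and the other 3 had no reads. With TailorMix it ran miR-9-5p, miR-128-3p, miR-7a-5p, miR-132-3p, miR-124-3p, miR-9-3p and miR-7b-5p. The shares of neighbours in each order did not overlap over the 2 libraries of a kit. The exceptions were miR-124-3p and miR-9-3p with NEBNext and the last 4 with TruSeq. Low in each order these gaps rest on few reads, such as 2 against 2 for miR-9-5p and miR-124-3p with TruSeq. Clopper-Pearson intervals of neighbours overlapped from miR-9-5p down with NEBNext and from miR-132-3p down with TruSeq. The exception was NEBNext replicate 1, where those of miR-132-3p and miR-7b-5p stood apart. With TailorMix the intervals of miR-9-3p and miR-7b-5p overlapped. Where intervals overlapped, the order is not resolved. The change of order with the kit also showed in the ratio of miR-9-5p to miR-128-3p within a library, which needs no scaling between libraries. It was 3.65 and 3.62 with TailorMix, 0.00803 and 0.00699 with NEBNext, and 0.00929 and 0.00551 with TruSeq. NEBNext and TruSeq overlapped in this ratio although both miRNAs had lower shares with TruSeq.

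**Figure D3:**
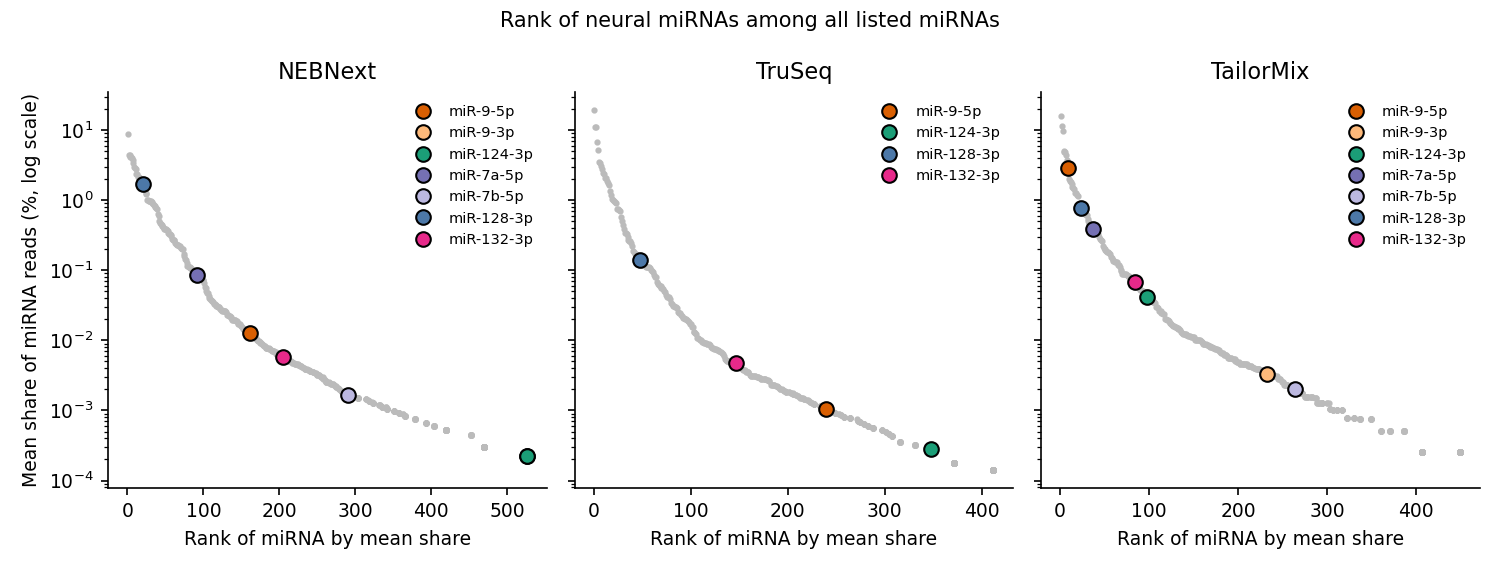
Grey points give the mean share of miRNA reads (%, log axis) of every miRNA listed with a kit against its rank, and coloured points the neural miRNAs, in a panel for each kit. MiR-9-5p stands at rank 9 with TailorMix, 161 with NEBNext and 239 with TruSeq, while miR-128-3p stays between ranks 20 and 48, and with NEBNext the point of miR-9-3p lies under that of miR-124-3p.

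The 360 miRNAs that reached 4 counts in 2 or more libraries were compared between kits by edgeR's quasi-likelihood test with TMM scaling and Benjamini-Hochberg adjustment. All 7 members passed this filter, but miR-9-3p and miR-124-3p passed only through the TailorMix libraries and so had to differ. Counts are therefore also given for the other 5 members, beside the 287 miRNAs that reached 4 counts with more than 1 kit. MiR-7b-5p is among these through 1 NEBNext and 1 TailorMix library. In the contrasts with TruSeq the 5 are not free of the filter either, because miR-7a-5p and miR-7b-5p had no TruSeq reads. Fold changes are relative to a scaling under which the median of all tested miRNAs was not 0: it was -0.52 from NEBNext to TruSeq, -0.24 from NEBNext to TailorMix and 0.50 from TruSeq to TailorMix on the log2 scale. Over the 287 it was -0.19, -0.21 and 0.32 in the same order. The median of the 5 members was -2.45, 2.82 and 3.40, with a miRNA at 0 in a kit set to the bound that 3 reads give. The contrasts share libraries, so a kit that stands apart enters both of its contrasts.

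From TruSeq to TailorMix, all 7 members had an adjusted p under 0.05 and all were higher with TailorMix, where 41.7% of all tested miRNAs were called higher and 28.9% lower. Without miR-9-3p and miR-124-3p, 5 of 5 were higher, against 40.8% higher and 33.4% lower of the 287 miRNAs. The 5 still hold miR-7a-5p and miR-7b-5p, which among the libraries of this contrast reached 4 counts only with TailorMix. The 5 of 5 is therefore not free of the filter. The log2 fold change was 10.86 for miR-9-5p (standard error 0.20, adjusted p = 8.77e-31) and 6.46 for miR-124-3p (standard error 0.51, adjusted p = 2.59e-13). It was 3.40 for miR-132-3p (standard error 0.27, adjusted p = 3.00e-13) and 2.05 for miR-128-3p (standard error 0.12, adjusted p = 1.21e-16), the smallest fold change of the 4. For miR-124-3p it was 5.55 without TruSeq replicate 2. Without TruSeq replicate 1, which held its only 2 reads, the fit gave 9.56 against no TruSeq read, which is not read as a fold. For the 3 members without TruSeq reads no fold is given, and their adjusted p was 3.12e-24 for miR-7a-5p, 0.000623 for miR-9-3p and 0.00579 for miR-7b-5p. The call of miR-7b-5p was lost with the DESeq2 Wald test (adjusted p = 0.0707). It was kept in edgeR's test with DESeq2 size factors (adjusted p = 0.00416).

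From NEBNext to TailorMix, 5 of the 7 were called higher and 1 lower, where 39.2% of all tested miRNAs were called higher and 38.3% lower. Without miR-9-3p and miR-124-3p, 3 of 5 were higher and 1 lower, against 38.0% higher and 39.7% lower of the 287 miRNAs. The log2 fold change of miR-9-5p reached 8.41 (standard error 0.16, adjusted p = 2.57e-30). MiR-124-3p followed with 7.60 (standard error 0.54, adjusted p = 1.79e-14), miR-132-3p with 4.09 (standard error 0.28, adjusted p = 4.85e-15) and miR-9-3p with 3.98 (standard error 1.05, adjusted p = 0.00111). MiR-7a-5p was higher by 2.82 (standard error 0.14, adjusted p = 6.33e-18). MiR-7b-5p had 1.02 (standard error 0.85, adjusted p = 0.264) and did not pass the test. MiR-128-3p was the exception in direction, with -0.48 (standard error 0.11, adjusted p = 0.000345). With the total of miRNA reads alone it was at -1.13, and without TailorMix replicate 1 its log2 fold change was -0.19 and its adjusted p 0.190 (4.94e-29 to 0.190 over all settings). The call of miR-9-3p was lost with the DESeq2 Wald test (adjusted p = 0.0800). It was kept in edgeR's test with DESeq2 size factors (adjusted p = 0.000456). The counts of single reads decided the size for miR-124-3p and miR-9-3p. Without NEBNext replicate 2 the log2 fold changes were 6.86 and 3.25. Without NEBNext replicate 1 the fit gave 9.53 and 5.91, but no NEBNext read of either was left, so these are not read as folds.

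From NEBNext to TruSeq, no member was called higher and 4 were called lower, where 26.1% of all tested miRNAs were called higher and 42.5% lower. The 4 are all among the 5 members that did not pass through TailorMix alone, against 42.9% lower of the 287 miRNAs. With only the 4 libraries of this contrast, miR-7b-5p failed the filter, and 3 of the 4 members tested were called lower. Of all 315 miRNAs tested there, 144 were called lower. MiR-7a-5p, with no TruSeq read, passed there through NEBNext alone. The log2 fold change was -2.53 for miR-128-3p (standard error 0.12, adjusted p = 3.57e-19) and -2.45 for miR-9-5p (standard error 0.40, adjusted p = 2.41e-06, and -3.14 without TruSeq replicate 1), so that both fell. With upper-quartile scaling the values were -1.63 for miR-128-3p and -1.58 for miR-9-5p, and with the total of miRNA reads alone -3.60 and -3.50. MiR-7a-5p and miR-7b-5p had no TruSeq reads, with adjusted p of 3.52e-17 and 0.0393 in edgeR's test. The call of miR-7b-5p, which rests on 6 NEBNext reads, was lost in 6 of its 10 alternatives, with adjusted p from 0.00544 to 0.163 over all of them, among them the fit blocked on replicate number (adjusted p = 0.109) and those without TruSeq replicate 1 (0.112) or replicate 2 (0.0698). MiR-132-3p had 0.69 (standard error 0.43, adjusted p = 0.154) and did not pass the test, and its direction depended on the scaling: with upper-quartile scaling it was called higher (1.58, adjusted p = 0.000567), and with the total of miRNA reads alone it was at -0.37 (adjusted p = 0.444), in a range of 0.000567 to 0.814 over all settings. MiR-9-3p and miR-124-3p had 3 reads or fewer in both kits and get no fold.

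**Figure D4:**
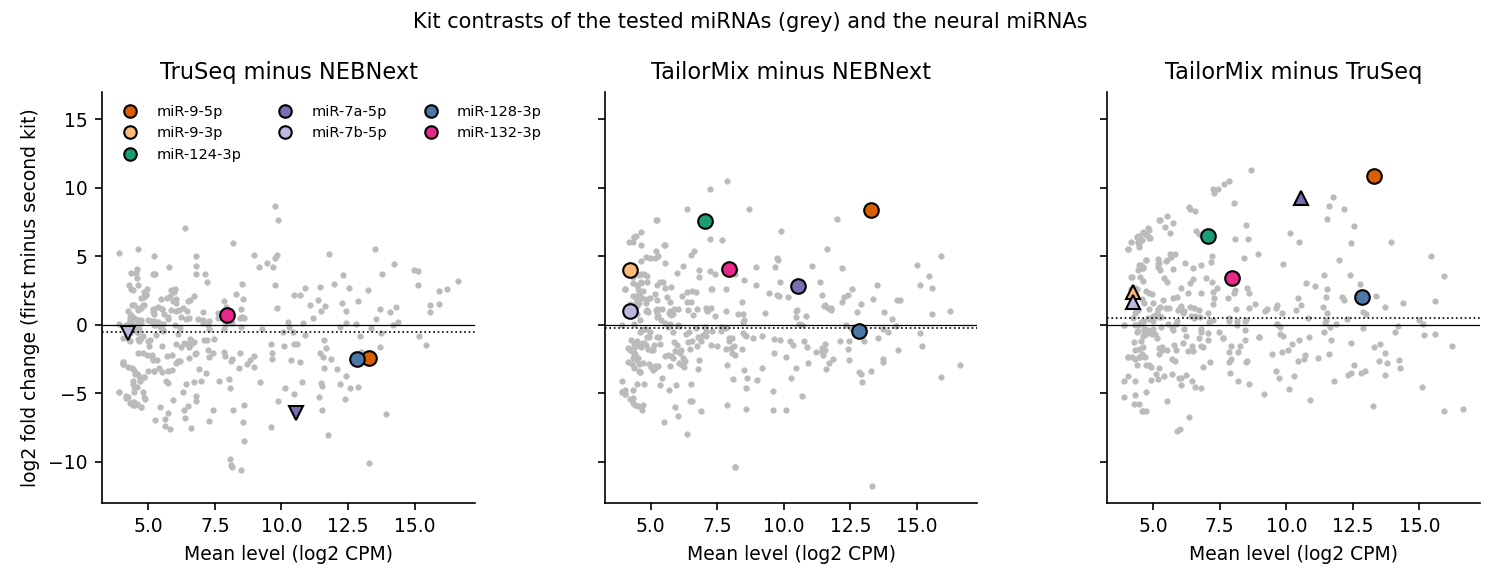
Grey points give the fitted log2 fold change of the other tested miRNAs against their mean level (log2 CPM, counts scaled to library size) in a panel for each pair of kits, the dotted line the median of all 360, and coloured points the neural miRNAs (triangles are bounds where a kit had 0 reads). In the TailorMix panels miR-9-5p stands at 8.41 and 10.86, among grey points that include miRNAs with no reads in a kit, and in the panel of TruSeq and NEBNext it lies at -2.45 beside miR-128-3p.

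The split of calls over all miRNAs depended on the scaling. From NEBNext to TruSeq, 38.1% of the called miRNAs were higher with TMM and 53.4% with upper-quartile scaling, and from TruSeq to TailorMix 59.1% and 46.2%. From NEBNext to TailorMix it was 50.5% with TMM and 38.6% with the total of miRNA reads alone. Upper-quartile scaling lowered the log2 fold changes from TruSeq to TailorMix to 10.09 for miR-9-5p, 5.73 for miR-124-3p, 2.61 for miR-132-3p and 1.26 for miR-128-3p. The total of miRNA reads alone lowered those from NEBNext to TailorMix to 7.76 for miR-9-5p, 3.44 for miR-132-3p and 2.17 for miR-7a-5p. The higher TailorMix levels of miR-9-5p, miR-7a-5p and miR-132-3p kept their direction and call under every alternative run.

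**Figure D5:**
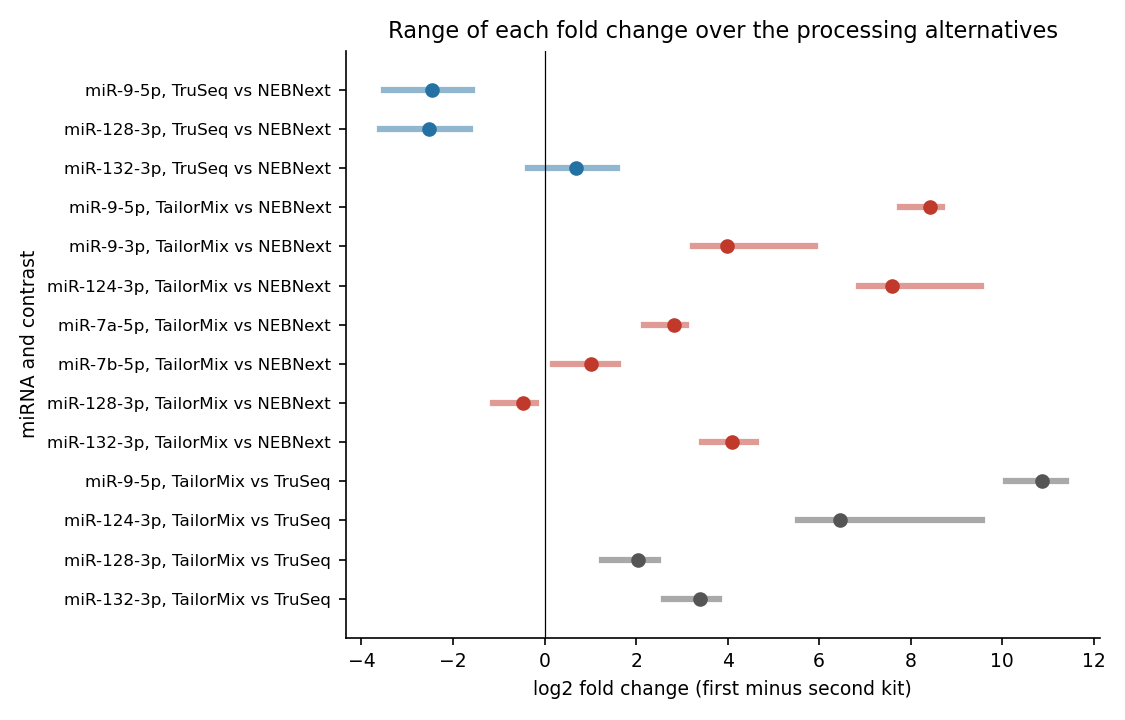
Points give the log2 fold change of each neural miRNA with reads in both kits as reported, and bars its lowest and highest value over the alternatives (linear axis, coloured by contrast). For miR-9-5p the bars run from 7.76 to 8.69 against NEBNext and from 10.09 to 11.39 against TruSeq, and the bar of miR-132-3p between TruSeq and NEBNext crosses 0, from -0.37 to 1.58. The upper ends of the bars of miR-124-3p and miR-9-3p come from fits that left a kit without reads of them and are not read as folds.

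The patterns of the members over the 6 libraries were compared with those of the other 359 tested miRNAs by Pearson's r of log2 CPM with a prior count of 2. The 6 libraries form 3 pairs, so r mostly describes the means of the kits and is given as a description. MiR-9-5p was most like MIMAT0000538 (r = 0.998) and MIMAT0000565 (r = 0.995), which are named by identifier because the files do not pair identifiers with names. For miR-9-5p, 56 of the 359 had r above 0.9, for miR-9-3p 52, for miR-124-3p 56, for miR-132-3p 51, for miR-7a-5p 43, for miR-128-3p 39 and for miR-7b-5p 29.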

How the data were processed

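Small RNA libraries of mouse serum were sequenced by the authors on a NextSeq 500 after size selection of 125 to 153 bp. The deposited values are raw counts: the authors trimmed adaptors (Cutadapt 1.8.1), removed short and low-quality reads, mapped without mismatches (Bowtie 1.1.2) to GRCm38 and counted reads per mature miRNA by genomic position (miRBase). How reads with several positions were counted is not given in the sources used here. The counts were not normalized, and reads that differ from the genome are lost.

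Kit and replicate number were taken from the sample titles. Shares, ranks and ratios were computed in Python 3.11.15 (scipy 1.17.1, numpy 2.4.6, pandas 2.3.3), with 95% Clopper-Pearson intervals. The 360 miRNAs that reached 4 counts in 2 or more libraries were tested with edgeR 4.0.16 (R 4.3.3, glmQLFit, glmQLFTest, TMM, all 6 libraries, no replicate block). Alternatives included the Wald test of DESeq2 1.42.0 and edgeR's test with the size factors (scaling factors) of DESeq2. Scripts were tested on simulated data. The 2 libraries of a kit differed by more than counting noise (chi-square per degree of freedom 1.59 with TailorMix, 2.16 with NEBNext and 15.0 with TruSeq). The sample titles number their sera 1 and 2, with the same numbers in each kit, but do not name the mice. P-values therefore measure the spread between these libraries, which may be technical. The reported fit estimated this spread from all kits together, while the TruSeq libraries differed most. P-values of the contrasts with TruSeq may thus be too small. Named miRNAs were the 7 members and, per member, the 2 most alike in pattern, of which those of miR-9-5p are printed. The members and lists were chosen with earlier results of these data known. Lists of 24 partner arms and other neural miRNAs had been set up by name, but no table used here pairs miRBase identifiers with names, so they were not analysed here. The names of the members come from the definition of the set.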

Additional observations from a re-analysis of the deposited data

How the results depend on the processing

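The number of miRNAs called stayed within 1.5 times the reported count in all 3 contrasts under all 14 alternatives: 175 to 262 against 247 from NEBNext to TruSeq, 200 to 284 against 279 from NEBNext to TailorMix, and 204 to 264 against 254 from TruSeq to TailorMix. With the replicate block the counts were 232, 250 and 235. The titles number the sera 1 and 2 in each kit, but whether a number stands for the same serum across kits is not stated. The difference between replicates 1 and 2 had Pearson correlations of 0.163, -0.0377 and 0.05 between pairs of kits over 68 miRNAs. Such low values cannot decide this, because noise between libraries alone also lowers them. The block changed no call of a member except that of miR-7b-5p from NEBNext to TruSeq. Over the members, 234 values kept their direction and their side of the adjusted p threshold. These include values called neither in the reported fit nor in the alternative, such as those of miR-7b-5p from NEBNext to TailorMix. Some come from fits against a kit without reads. Another 9 lost the call (miR-7b-5p 7 times, miR-9-3p and miR-128-3p 1 time each). MiR-132-3p from NEBNext to TruSeq gained a call with upper-quartile scaling and reversed to -0.37 with the total of miRNA reads alone. The scaling is the only choice changed there. Members that failed the filter in an alternative have no value in it. MiR-9-3p and miR-124-3p failed it whenever a TailorMix library was left out, so their calls were not checked there. MiR-7b-5p also lacks a value in some fits with a library left out. The summed share of the 7 miRNAs over pooled libraries was 4.13% (TailorMix), 1.83% (NEBNext) and 0.148% (TruSeq). From 1 to 10 counts as the limit of detection, 5 to 3 members were detected with NEBNext, 3 to 2 with TruSeq and 7 to 5 with TailorMix. Few reads stood behind miR-9-3p and miR-7b-5p, with at most 13 and 8 per kit, and behind miR-124-3p outside TailorMix, with at most 2.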
